A study of Mus musculus with 6 samples.

Results

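Type I interferon stimulated genes were examined in mouse hearts as 10 genes taken by symbol, namely Ifit1, Ifit2, Ifit3, Isg15, Usp18, Mx1, Mx2, Rsad2, Ifi44 and Irf7, out of 45777 genes in the table. They were chosen as core members of the response outside the Oas family. All 10 were found, and all 10 averaged 10 counts or more, as did 18328 genes in all, which were the genes tested. The hearts came from female BALB/c nude mice (CAnN.Cg-Foxn1nu/Crl, 6 weeks of age) that carried a subcutaneous tumour of MDA-MB-231, a human breast cancer cell line, in every group including Control. From day 7 after the tumour cells were given, the mice received for 3 weeks either no drug (Control), ginsenoside Rh2 at 20 mg/kg (Rh2-20 mg/kg) or 30 mg/kg (Rh2-30 mg/kg) each day, doxorubicin (Dox) at 2 mg/kg every other day to a cumulative 22 mg/kg, or Dox with the lower (Rh2-20 mg/kg + Dox) or the higher dose of Rh2 (Rh2-30 mg/kg + Dox). Rh2 is a saponin of ginseng, and doxorubicin is an anthracycline whose use is limited by damage to the heart. Each condition was 1 library made from 5 pooled hearts, so no condition had a replicate. Nude mice lack a thymus and thus most T cells, which limits the hearts as a model of immune signalling.

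Type I interferons are secreted after cells sense foreign or misplaced nucleic acid. They bind the receptor IFNAR1-IFNAR2, which signals through the kinases JAK1 and TYK2. The transcription factors they activate, with IRF9, bind the interferon-stimulated response element and switch on a wide set of genes. In the heart the program is best known from viral myocarditis and from the innate response to injured tissue. Among the members, Ifit1, Ifit2 and Ifit3 encode tetratricopeptide proteins that bind viral RNA or each other, Mx1 and Mx2 belong to a family of dynamin-like antiviral GTPases but are annotated here as pseudogenes, and Rsad2 encodes viperin, which makes a chain-terminating nucleotide. Isg15 encodes a ubiquitin-like modifier and Usp18 the protease that removes it and also damps the receptor. Ifi44 encodes an interferon-induced protein, and Irf7 encodes the transcription factor that amplifies interferon production.

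The members lie at 7 places in the genome. In RefSeq on GRCm38.p6, Ifit2 (chr19:34550550-34576534), Ifit3 (chr19:34583119-34588982) and Ifit1 (chr19:34640889-34650009) share a cluster with the near-copies Ifit3b, Ifit1bl1 and Ifit1bl2. Mx1 (chr16:97447035-97462906) and Mx2 (chr16:97536081-97560901) lie near each other, with Fam3b between them. The others are Isg15 (chr4:156199424-156200818), Usp18 (chr6:121245906-121270917), Rsad2 (chr12:26442743-26456452), Ifi44 (chr3:151730922-151749910) and Irf7 (chr7:141263183-141266499). Mx1 and Mx2 are both annotated as transcribed pseudogenes in the deposited table and in RefSeq. Ifit1 overlaps Ifit1bl1, Isg15 overlaps Gm46878 and Usp18 overlaps Gm44148, so reads in the shared stretches could have been counted for either gene.

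The response element core was searched as 2 copies of GAAA with 2 bases of any kind between them, on either strand. The windows ran from 250 bases before to 50 bases after an annotated start. It was found in 4 of the 7 members that had a window, against 3.44% of all 32851 windows and 3.99% of 27025 genes. Among other interferon-stimulated genes 24 of 55 held it (43.6%). The 4 promoters are shown because they carry the letters through which the pathway is known to act. Each is written 5′ to 3′ on the strand of its gene in GRCm38.p6, with the core in capitals. Isg15 is chr4:156200860-156200911 on the minus strand, Rsad2 chr12:26456548-26456587 on the minus strand, Ifit3 chr19:34583358-34583431 on the plus strand and Ifit1 chr19:34640770-34640828 on the plus strand.
Isg15: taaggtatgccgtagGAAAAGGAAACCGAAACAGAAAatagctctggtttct
Rsad2: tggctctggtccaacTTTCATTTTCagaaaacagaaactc
Ifit3: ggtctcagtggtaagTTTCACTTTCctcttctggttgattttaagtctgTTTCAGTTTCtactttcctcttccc
Ifit1: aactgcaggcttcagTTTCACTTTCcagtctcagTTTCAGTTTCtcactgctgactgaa

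The Isg15 stretch held 3 overlapping matches, the Ifit3 and Ifit1 stretches held 2 each, and the Rsad2 stretch held 1. All matches lay between positions -156 and -57 relative to the annotated start used for each window. That start need not be the edge of the gene interval given above. The Ifit3 window, chr19:34583279-34583578, lies inside that interval, so its positions are counted from a later start. The starts used for Ifit2, which had 2 windows, and for Irf7 also lie inside their intervals. Those of Isg15 were in the orientation of the gene and those of Rsad2, Ifit3 and Ifit1 were on the other strand. No match was found in the windows of Ifit2, Ifi44 and Irf7. The gamma-activated site, searched as TTCNNNGAA, which reads the same on both strands and can overlap the first motif, was found in the window of 1 member, Ifit2, and in 8.3% of all windows. These are matches of letters in windows from the reference strain and no binding was measured.

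**Figure D1:**
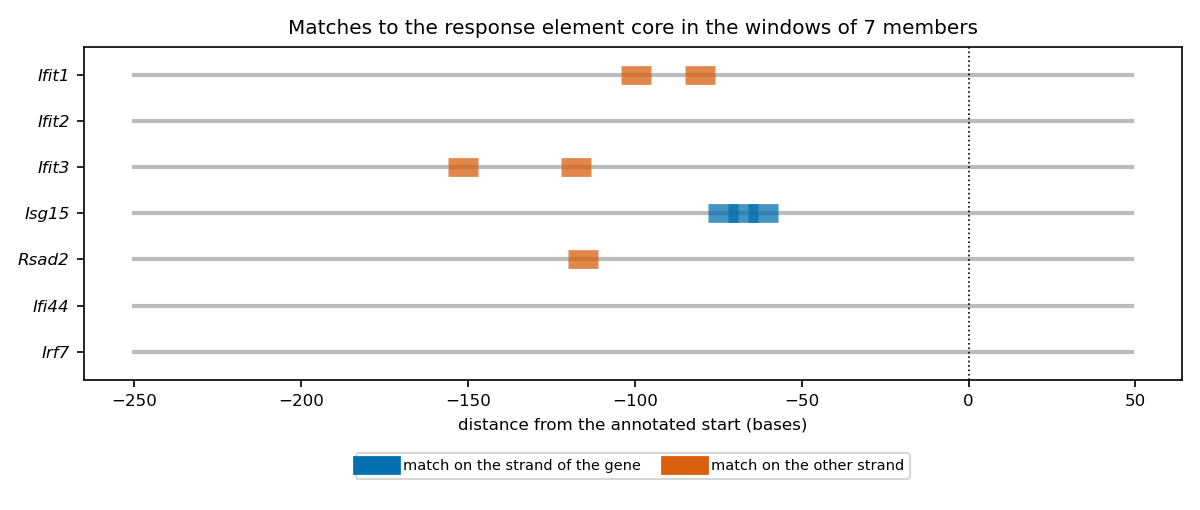
Positions of the response element core in the windows of 7 members. The horizontal axis is the distance in bases from the annotated start used for each window, grey lines are the windows and coloured blocks are matches on either strand. Matches in Ifit1, Ifit3, Isg15 and Rsad2 fall between -156 and -57, and Ifit2, Ifi44 and Irf7 show none.

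The libraries held 86164411 to 90621002 counts, and the TMM factors that put them on a common scale ran from 0.959 to 1.08. The heart label was borne out by its markers, whose 8 cardiomyocyte genes summed to 18404 to 22880 TPM, the unit of read density per transcript length and library. All libraries also held endothelial (1237 to 1562 TPM), fibroblast (892 to 1534 TPM) and macrophage (252 to 559 TPM) markers, while T cell markers summed to at most 4.88 TPM and Cd3d was at 0. Monocyte markers summed to 124 to 213 TPM, neutrophil markers to 29.0 to 111 TPM, B cell markers to 1.83 to 14.0 TPM and NK cell markers to at most 4.18 TPM. Of the 6 plasmacytoid dendritic cell markers, Siglech had 8 to 57 counts and Klk1 was at 0. Cox6a2 of that list had 22116 to 36426 counts scaled by the TMM factors, and Pacsin1 had 19.0 to 158. That list summed to 1093 to 1634 TPM, which was not read as a level of this cell type. In bulk tissue, fewer cells of a type and less RNA per cell cannot be told apart.

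Per length, the members differed in level in the Control heart. Mx2 was at 39.2 TPM, Ifit3 at 33.8 TPM, Ifit1 at 25.9 TPM, Irf7 at 24.0 TPM and Rsad2 at 19.4 TPM. Ifi44 was at 18.7 TPM, Usp18 at 17.8 TPM, Ifit2 at 17.4 TPM and Isg15 at 11.5 TPM. Mx1, at 3.54 TPM, was the lowest.

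The values below are counts scaled by the TMM factors, given first for Control, then for Rh2-20 mg/kg, then for Rh2-30 mg/kg, then for Dox, then for Rh2-20 mg/kg + Dox, and last for Rh2-30 mg/kg + Dox. Ifit1 had 2322, 1597, 1767, 2378, 1905 and 1263 normalized counts. Ifit2 had 2335, 2101, 1955, 2203, 1923 and 1616. Ifit3 had 2289, 1691, 1673, 1930.4, 1490.4 and 1046. The 3 Ifit genes were thus high in Control and Dox, lower in the 4 hearts given Rh2 and lowest in Rh2-30 mg/kg + Dox, and the step was smallest for Ifit2, whose highest library was 1.44-fold above its lowest.

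For the modifier, Isg15 had 295, 276, 276, 294, 202 and 161 normalized counts. Usp18, its protease, had 1069, 654, 675, 1084, 580.1 and 518. The Usp18 libraries formed a high pair, Control and Dox, and a low set of 4 with Rh2, with no overlap. For Isg15 the lowest values were those of the libraries given Rh2 with Dox, and its Control, Dox and single-agent Rh2 values lay between 276 and 295.

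Of the Mx pair and Ifi44, Mx1 had 325, 243, 192, 240.0, 179 and 148 normalized counts. Mx2 had 3219, 1817, 1531, 2262, 1599 and 1441. Control was the highest library for both, and every treated heart was lower. Ifi44 had 1818, 1112, 1376, 1341, 987 and 756, with Control again the highest. Mx1 and Ifi44 each had 1 Rh2 library above Dox by a small margin.

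Irf7 had 1489, 1128, 1112, 1610.4, 998 and 623 normalized counts, highest in Dox and lowest in Rh2-30 mg/kg + Dox, a 2.58-fold range. Rsad2 stood apart with 2494, 1712, 2323, 5899.6, 2797 and 525. Its Dox library was 2.11-fold above the next, and its Rh2-30 mg/kg + Dox library was far below the rest, an 11.2-fold range. The other 9 members ranged between 1.44-fold (Ifit2) and 2.58-fold (Irf7), and 7 of 10 members spanned at least 2-fold, against 28.4% of genes tested.

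**Figure D2:**
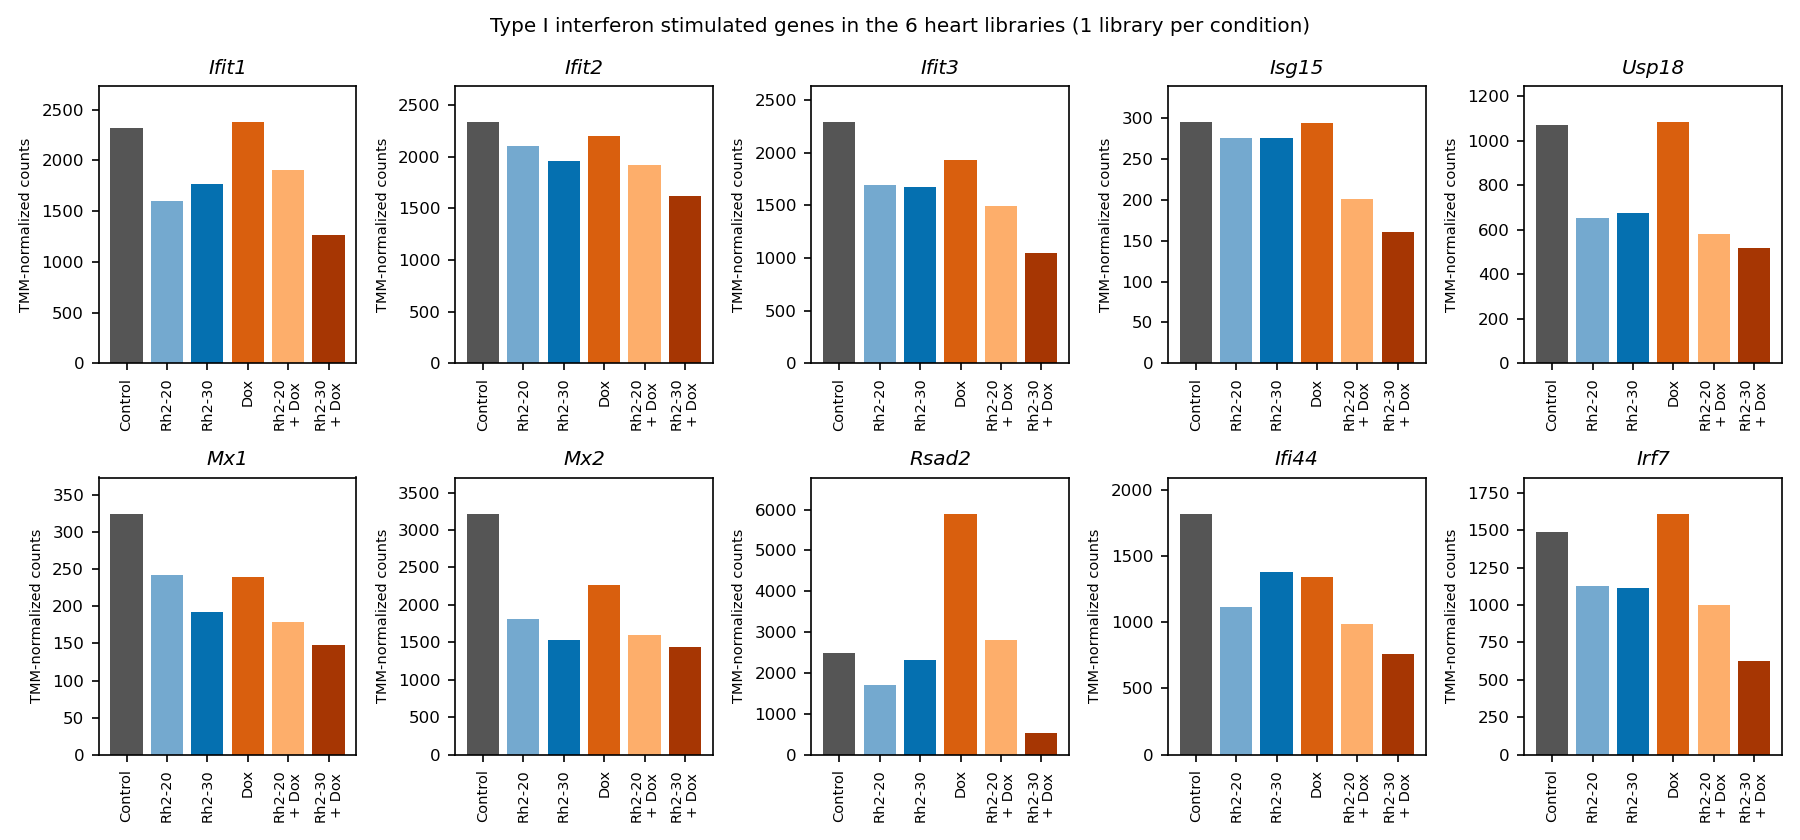
TMM-normalized counts (vertical axes, from 0, on a scale of their own in each panel) of the 10 members in the 6 libraries. Each bar is 1 library of 5 pooled hearts and there is no replicate. Rh2-30 mg/kg + Dox is the lowest bar for each of the 10 genes, and Rsad2 reaches 5899.6 in Dox but only 525 in Rh2-30 mg/kg + Dox.

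All 10 members were at their lowest in Rh2-30 mg/kg + Dox, which held the lowest value of 23.4% of genes tested. All 10 also followed 1 order among the hearts given Dox, with Dox above Rh2-20 mg/kg + Dox and that above Rh2-30 mg/kg + Dox, an order shown by 22.6% of genes. The highest library was Control for 6 members (17.1% of genes) and Dox for Ifit1, Usp18, Rsad2 and Irf7 (18.7% of genes). Counts of the members lowest in Rh2-30 mg/kg + Dox and in the falling order were 10 under each of the other scalings tried.

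The spread between libraries was taken as 1 dispersion over all genes, 0.0285, a coefficient of variation of 0.169, and entered each ratio of single libraries as a 95% interval of about 0.67 to either side on the log2 scale. It is an estimate from 6 unlike hearts and not from replicates. The Cox-Reid estimate of the same quantity, chosen as an alternative after seeing the data, was 0.0864 and widened the intervals to about 1.18. It left 8 of 110 member ratios with an interval without 0, in place of 35. These ratios reuse the same 6 libraries and are not independent. With the first dispersion, intervals of 1.74% to 15.4% of genes tested lay below 0, depending on the pair of libraries. Those of 2.3% to 10.3% lay above 0. No such share was computed with the Cox-Reid estimate. Between neighbours in the order of libraries, no gap exceeded its interval for any of the 9 members other than Rsad2, and the largest of these gaps was 0.68, in Irf7. For Rsad2, 2 gaps did, that of Dox over the next library, Rh2-20 mg/kg + Dox, and that of Rh2-20 mg/kg over the lowest, Rh2-30 mg/kg + Dox.

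Dox alone was set against Control to ask how the anthracycline affected these genes. Rsad2 was 2.36-fold higher, a log2 ratio of 1.24 (interval 0.56 to 1.92), and was the 1 member at least 2-fold higher, where 5.43% of genes tested were. No member was at least 2-fold lower (3.58% of genes). The median log2 ratio was -0.05, and the other 9 ranged from -0.51 (Mx2) to 0.11 (Irf7) with each interval holding 0. Across all 6 hearts, the 3 with Dox against the 3 without gave a median log2 difference of -0.26 over the members, beside -0.01 over all genes tested.

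No member passed an adjusted p of 0.05 for Dox in edgeR's quasi-likelihood test (0.0273% of genes tested did), and none had an unadjusted p under 0.05 (5.91% of genes were lower and 4.2% higher at that level). DESeq2 likewise gave 0 members at either level. Neither fit had a term for Rh2. With Rh2 as a term 1 member was lower at the unadjusted level, and with Rh2 dose as a factor 2 were. The share of all genes lower in those fits is not given here, so these counts cannot be compared with it. The adjusted p of the members ran from 0.574 to 0.977. Ifi44 had the lowest log2 difference, -0.48 (SE 0.25), and Rsad2 the highest, 0.50 (SE 0.70). For Rsad2 the mean of the log2 values was 11.005 with Dox and 11.070 without, and its fitted difference was -0.0865 on FPKM plus 0.1 and -0.389 without the Dox library, so its sign depended on the scale and on 1 library. Without the Dox library, 4 members were lower at the unadjusted level, where 5.23% of genes were. Without Rh2-30 mg/kg + Dox, 1 member was higher at that level, in a fit whose share of all genes higher is not given here. None of the members had its 3 Dox libraries all below or all above the 3 others (9.2% and 7.84% of genes).

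Rh2 was compared next, the 4 hearts given either dose against the 2 without. This fit had Dox as a term, whereas the Dox fit had no term for Rh2. All 10 members had a log2 difference below 0, with a median of -0.58 beside 0.01 over all genes tested. At an unadjusted p under 0.05, 8 of 10 were lower, where 4.65% of genes were. None passed after Benjamini-Hochberg adjustment in edgeR's quasi-likelihood test, nor did any of the 18328 genes (0%), and the adjusted p of these 8 was 0.567 or 0.569. With DESeq2's Wald test, 3 members passed, Usp18 (adjusted p 2.55e-05), Mx2 (0.000625) and Ifi44 (0.0483), among 242 genes.

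Usp18 had the lowest p, with a difference of -0.84 on the log2 scale (SE 0.12, unadjusted p 0.000448 in edgeR), or a level with Rh2 of 0.56 of that without. Mx2 had -0.76 (SE 0.13) and Irf7 -0.71 (SE 0.22). Ifi44, Mx1, Ifit3 and Ifit1 lay between -0.58 and -0.53, and Ifit2 had -0.26 (SE 0.10). The remaining members, Isg15 at -0.40 (SE 0.21) and Rsad2 at -1.13 (SE 0.67), did not pass at the unadjusted level. An exact permutation test of 4 against 2 libraries cannot go below a p of 0.0667, which Usp18 and Mx2 reached.

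**Figure D3:**
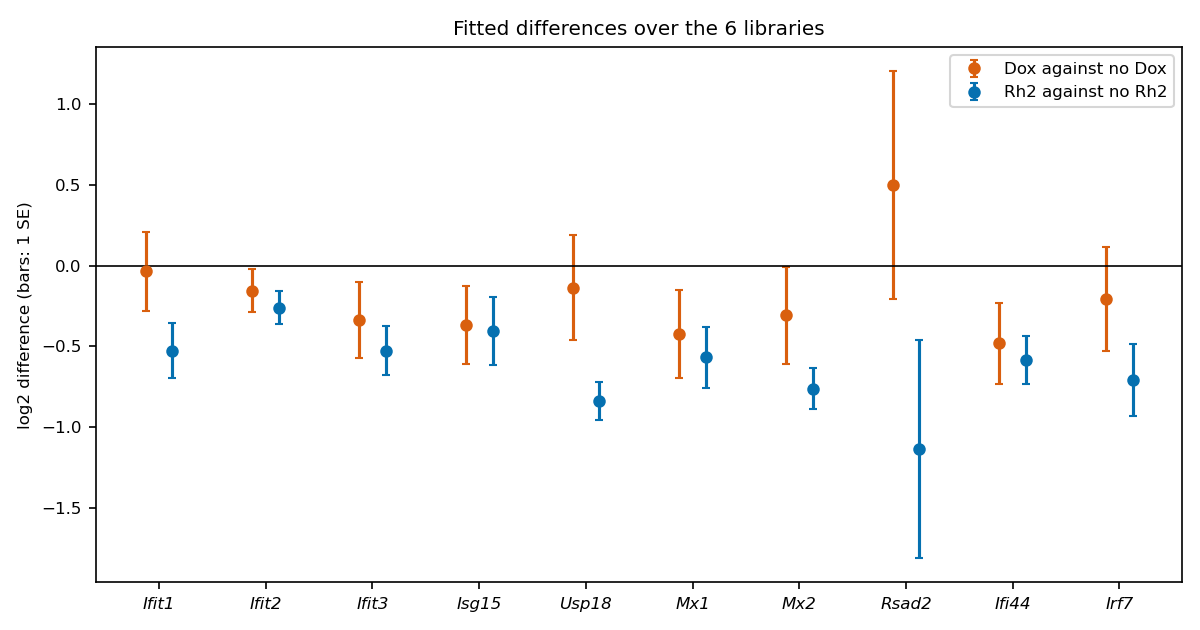
Log2 differences of the 10 members over the 6 libraries, for Dox against no Dox and for Rh2 against no Rh2, as fitted by edgeR with bars of 1 SE. The Rh2 differences are all below 0, from -0.26 for Ifit2 to -1.13 for Rsad2, whereas Rsad2 has the only Dox difference above 0, which reverses on FPKM plus 0.1.

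The 4 hearts with Rh2 were all below the 2 without for 7 of 10 members, against 9.1% of genes tested, the exceptions being Mx1, Rsad2 and Ifi44. This count was 6 with total counts or FPKM and 5 with TPM. The count of 8 at the unadjusted level rested on the hearts without Rh2, since it was 2 without the Dox library (1.73% of genes were lower in that fit) and 4 without the Control library (2.61% of genes). Macrophage markers summed to 443, 559, 414 and 252 TPM in the 4 hearts with Rh2 and to 311 and 286 TPM in the 2 without, and all 10 of them had an Rh2 difference above 0, opposite in sign to the members. Their part in the result was not tested.

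Rh2-20 mg/kg against Control gave a median log2 ratio of -0.49 over the members, all 10 of them below 0 (49.9% of genes were), and none at least 2-fold lower (2.8% of genes). Rh2-30 mg/kg against Control gave -0.41, again with all 10 below 0 (46.5% of genes), and Mx2 alone was at least 2-fold lower at -1.07 (1.65% of genes), though not on total counts or FPKM. These share the Control library. Between the doses, 5 of 10 members were below 0 in Rh2-30 mg/kg against Rh2-20 mg/kg (48.9% of genes), with a median of -0.01 and every interval holding 0. The ratios between doses ran from -0.34 to 0.44, where the interval reached about 0.67 to either side, or 1.18 with the Cox-Reid estimate. Without Dox, a dose difference smaller than that could not be told from the spread, which was not taken from replicates.

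The doses were also set against Dox alone. Rh2-20 mg/kg + Dox against Dox had a median of -0.47, all 10 members below 0 (49.4% of genes), and Rsad2 was at least 2-fold lower at -1.08 (3.44% of genes). Rh2-30 mg/kg + Dox against Dox had a median of -0.87, all 10 below 0 (53.2% of genes), and 3 members were at least 2-fold lower (7.35% of genes). These were Rsad2 at -3.49 (interval -4.18 to -2.80), which is 11.2-fold lower, Irf7 at -1.37 (interval -2.06 to -0.68) and Usp18 at -1.06 (interval -1.76 to -0.37). Intervals of 7 of the 10 lay below 0 (9.36% of genes), those of Ifit2, Mx1 and Mx2 being the others, and with the Cox-Reid intervals only those of Rsad2 and Irf7 did. Both comparisons share the Dox library. Between the doses, Rh2-30 mg/kg + Dox against that of Rh2-20 mg/kg had a median of -0.36 with all 10 members below 0 (51.1% of genes), and Rsad2 alone was at least 2-fold lower, at -2.41 (6.24% of genes), and alone had an interval without 0.

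Against Control, Rh2-30 mg/kg + Dox had the lowest values of all. Ifit3, Usp18, Mx1, Mx2, Rsad2, Ifi44 and Irf7, 7 of the 10, were at least 2-fold lower, where 6.85% of genes tested were, and the median was -1.13 beside -0.01 over all genes. The ratio was -2.25 for Rsad2 (4.75-fold lower) and between -1.26 and -0.53 for the others, with 9 intervals below 0 (8.72% of genes) and that of Ifit2 holding 0. With the wider Cox-Reid intervals 3 of the 9 remained below 0, those of Rsad2, Ifi44 and Irf7. The count was 3 on FPKM with 1 added before the log. Rh2-20 mg/kg + Dox against Control had a median of -0.60, and Mx2 was the 1 member at least 2-fold lower, at -1.01 (3.64% of genes), again not on total counts or FPKM.

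Cell type markers differed in that library too. Rh2-30 mg/kg + Dox had the highest cardiomyocyte sum, 22880 TPM against 18404 to 20777 TPM in the others, and the lowest endothelial (1237 TPM), fibroblast (892 TPM) and macrophage (252 TPM) sums. It was the lowest library for 3 of 6 endothelial, 4 of 6 fibroblast and 6 of 10 macrophage genes, against 23.4% of genes tested. The B cell sum was also lowest there (1.83 TPM). The monocyte (183 TPM), neutrophil (50.8 TPM), NK cell (1.14 TPM) and T cell (3.97 TPM) sums were not. Endothelial markers summed to 1562 TPM in Control and 1528 TPM in Dox. Whether they had a part in the lower member levels was not tested.

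**Figure D4:**
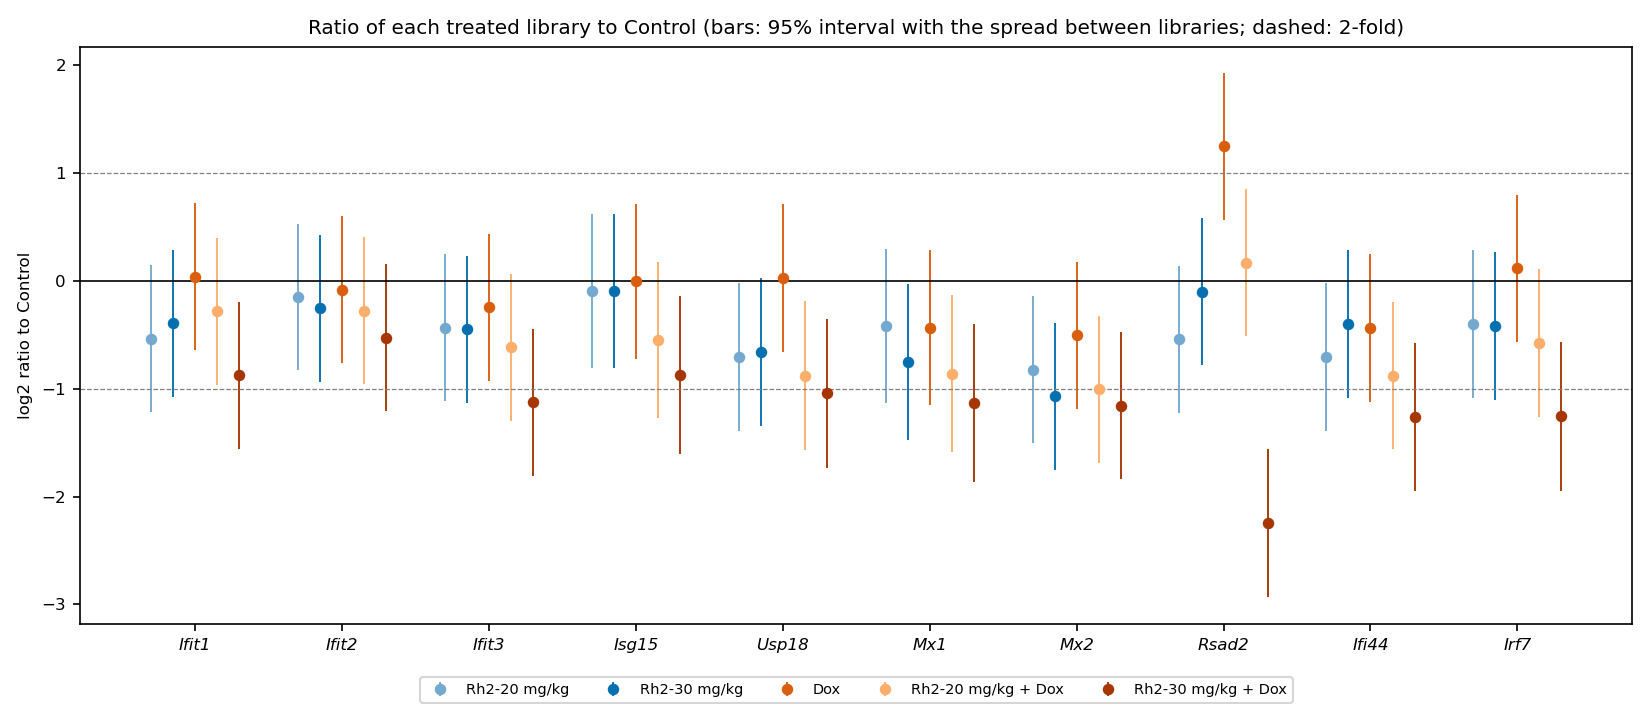
Log2 ratio of each treated library to Control (vertical axis) for the 10 members, with bars of the 95% interval that includes the spread between libraries and dashed lines at 2-fold. Rh2-30 mg/kg + Dox is the lowest point for each gene, and 9 of its 10 intervals lie below 0 (3 with the Cox-Reid dispersion). Dox is above 1 for Rsad2 only.

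Adding Dox to a fixed Rh2 dose gave different values at the 2 doses. In Rh2-20 mg/kg + Dox against Rh2-20 mg/kg the median was -0.17 with 8 of 10 members below 0 (50.1% of genes), and Rsad2 was higher, at 0.71. In Rh2-30 mg/kg + Dox against Rh2-30 mg/kg all 10 were below 0 (53% of genes), with a median of -0.58, and Rsad2 was at least 2-fold lower at -2.14 (12.1% of genes). The interaction of Dox with Rh2 pooled both doses, so it did not test the difference between them. The interaction was called for no member in edgeR's quasi-likelihood test and for none of all genes (0%). At an unadjusted p under 0.05 it held for 0 members (1.82% of genes were lower and 0.895% higher), as it did with DESeq2. The widest interaction was that of Rsad2, -1.52 (SE 1.32).

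Rsad2 was set beside the interferon-stimulated genes with the widest ranges and its own neighbour. Ube2l6, the conjugating enzyme for ISG15, had 1617, 1227, 2065, 7428, 4051 and 567 raw counts in the same order of libraries, a 13.5-fold range, and was likewise highest in Dox and lowest in Rh2-30 mg/kg + Dox. Nlrc5, a transactivator of MHC class I genes, had 5180, 3528, 4541, 21614, 4973 and 5962, so its Dox library was 4.14-fold above Control but Rh2-30 mg/kg + Dox was not its lowest. Cmpk2, which lies next to Rsad2 (chr12:26469117-26479837) and encodes a mitochondrial nucleotide kinase, had 389, 445, 512, 475, 487 and 418, with every interval against Control holding 0.

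**Figure D5:**
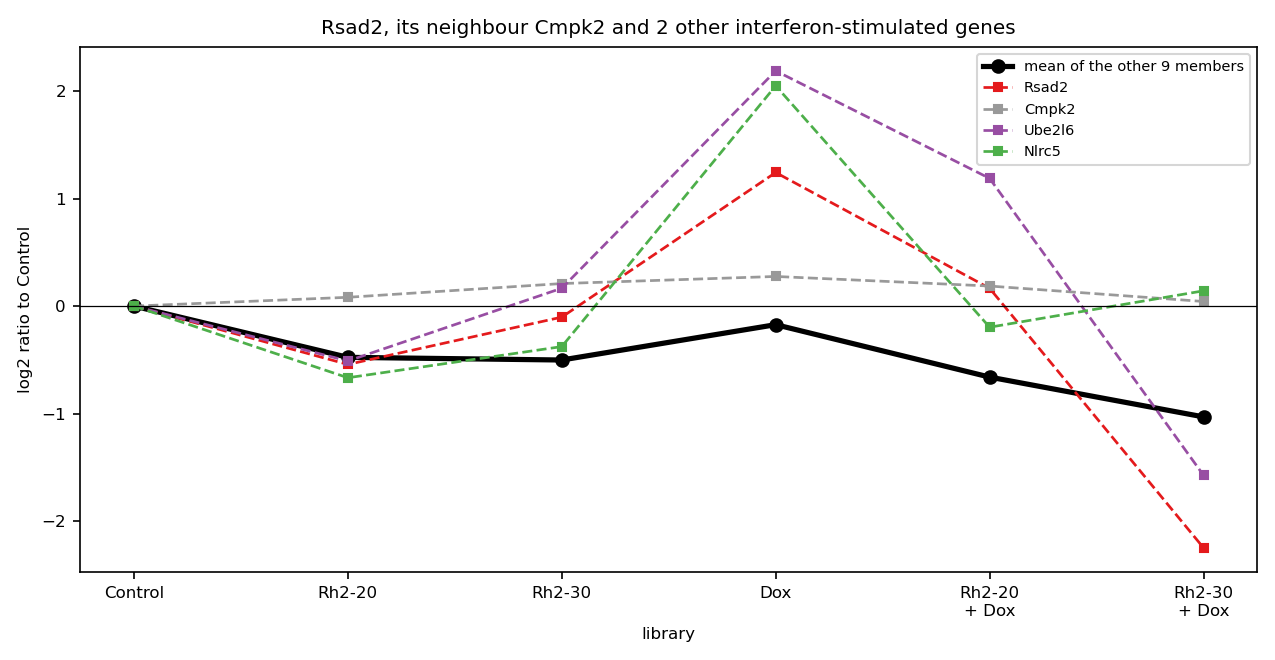
Log2 ratio to Control (vertical axis) in each library (horizontal axis) for Rsad2, its neighbour Cmpk2, Ube2l6 and Nlrc5, and for the mean of the other 9 members in black. Lines only join the points of 1 gene. In Dox, Rsad2, Ube2l6 and Nlrc5 lie above 1 while the mean of the other members is at -0.17, and Rsad2 and Ube2l6 lie lowest in Rh2-30 mg/kg + Dox.

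The members differed in how closely they followed each other. The root mean square difference was taken between each member's log2 profile and the mean of the other members, both centred over the 6 libraries. It was smallest for Irf7 (0.0858) and Ifit3 (0.0964). It was 0.257 for Mx2 and 0.818 for Rsad2. The 15240 other genes that averaged 50 counts or more were compared with the mean profile of all 10 members, so their values have another reference. The nearest were Herc6 (0.0753), Phf11d (0.0945), LOC101055758 (0.101), Srgap1 (0.109), Nav3 (0.109), Sp110 (0.115), Kcp (0.118) and Gm7609 (0.123). Herc6, the mouse ligase for ISG15, had 7110, 5931, 5823, 7500, 5598 and 3868 raw counts.

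Genes upstream of the members were described next. Of 18 type I interferon genes in the table, 7 were at 0 in every library and 13 had at most 3 counts in every library. Ifnz (32 to 116 counts) and Ifnab (9 to 29 counts) alone averaged 10 or more, and neither had an unadjusted p under 0.05 in any of the 3 tests. These genes are near-copies of each other, so their counts are uncertain.

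Among 7 receptor and JAK-STAT genes, 4 were lower with Rh2 at an unadjusted p under 0.05 (4.65% of all genes) and none passed adjustment. Stat2 had a log2 difference of -0.73 (SE 0.12) and Irf9 had -0.56 (SE 0.11). Both were highest in Dox and lowest in Rh2-30 mg/kg + Dox, with ranges of 2.00-fold and 1.79-fold. Ifnar2, a receptor subunit, was at 2948, 2836, 3210, 2453, 2612 and 2089 raw counts.

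Of the 18 nucleic acid sensing genes tested, 3 were lower with Rh2 (4.65% of all genes) and 3 with Dox (5.91% of all genes) at the unadjusted level. Zbp1, a sensor of Z-form nucleic acid, had the widest range (3.95-fold) and an Rh2 difference of -1.14 (SE 0.29). Irf5 and Tlr9 were highest in Rh2-30 mg/kg, with ranges of 2.40-fold and 2.46-fold. Eif2ak2, the kinase PKR, had a Dox difference of -0.47 (SE 0.15). Of 14 negative regulators, 2 were lower and 1 higher with Rh2 at that level, where 4.65% and 4.09% of all genes were. Samhd1, a nucleotide hydrolase, had -0.48 (SE 0.13), while the ranges of Trex1, Ptpn6 and Socs3 were 2.37-fold, 2.29-fold and 1.86-fold.

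In ISG15 conjugation, Uba7, the activating enzyme, had an Rh2 difference of -0.87 (SE 0.17) and Herc6 of -0.59 (SE 0.15). They were the 2 of 4 genes lower at the unadjusted level, where 4.65% of all genes were. Ube2l6 had -1.05 (SE 0.77), and Trim25, the ubiquitin ligase of RIG-I, had a 1.502-fold range. Of the Ifit and Mx relatives, Ifit3b (-0.35, SE 0.13) and Ifi44l (-0.68, SE 0.22) were lower with Rh2 at that level. Ifit1bl1 and Ifit1bl2, which lie in the Ifit cluster, had 0.12 (SE 0.20) for the first and a 1.19-fold range for the second.

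Across 77 interferon-stimulated genes outside the members, 31 were lower and 3 higher with Rh2 at an unadjusted p under 0.05, with a median of -0.31. The shares over all genes were 4.65% lower and 4.09% higher. With Dox, 5 were lower and 1 higher, beside 5.91% and 4.2% of all genes, so the share lower was near that of all genes. Rh2-30 mg/kg + Dox was the lowest library of 54 of the 77 (70.1%), against 23.4% of genes tested. The 4 hearts with Rh2 were all below the 2 without for 34 (44.2%), against 9.1% of genes tested. Isg20, an exonuclease, had a 4.53-fold range with Dox highest, and Ifi27l2a a 4.199-fold range with Rh2-30 mg/kg highest. The 3 that were higher, named after their values were seen, were Ifi205 (1.002, SE 0.09), Ifi207 (0.77, SE 0.09) and Ifi204 (0.34, SE 0.09), DNA-binding proteins of 1 family whose reads may be shared. Other genes of that family, also named after their values were seen, were not higher. Ifi203 had 31274 normalized counts in Control and 26334 in Dox, and 20951 to 24595 with Rh2. Mndal had 15021 in Control and 13707.5 in Dox, and 9828 to 12315 with Rh2. Ifi209 was highest in Control (583) and lowest in Rh2-30 mg/kg + Dox (315). Its Dox value (336) was below those of the other hearts with Rh2 (412 to 470), unlike Ifi203 and Mndal. Ifi205 had 1320, 3005, 3331, 1674, 3439 and 3177 raw counts. It was opposite to the members for Rh2 against no Rh2, but its highest library was Rh2-20 mg/kg + Dox, so their order was not reversed.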

How the data were processed

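RNA of hearts pooled from 5 mice per condition was captured with the SureSelect XT RNA Direct kit and sequenced. The authors trimmed reads with Trimmomatic, aligned them with HISAT2 2.1.0 to mm10 and assembled and quantified genes with StringTie 2.1.3b (bcl2fastq 2.20.0 upstream, per the labels). They deposited raw read counts per gene for each library together with FPKM and TPM values. How reads on shared or repeated stretches were assigned, and whether strand was used, is not given in the sources used here. Capture probes set which RNA is seen, so a level depends on the probes.

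Genes that averaged 10 counts or more were tested with edgeR 4.0.16 (TMM, quasi-likelihood, two-sided, Benjamini-Hochberg over 18328 genes, R 4.3.3) for Dox (3 against 3), Rh2 (4 against 2, Dox as a term) and their interaction. Conditions have 1 library, so p-values measure the spread among 6 unlike hearts. Ratios of single libraries used a prior count of 0.5, a call of 2-fold and no test. Their intervals cover counting error plus 1 common dispersion, at 95%. Alternatives used DESeq2 1.42.0, limma 3.58.1 on log2 FPKM plus 1 or 0.1, other scalings and each library left out, and some were added after seeing the data. The scripts were tested on simulated data. Totals of 86164411 to 90621002 counts leave counting error small beside the spread. Sequences and positions are from RefSeq GRCm38.p6. Windows were at hand for 7 members, and those of Usp18, Mx1 and Mx2 were not analysed here.

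Besides the members, each other list contributed the 4 genes with the widest range among those averaging 50 counts or more, and the 8 genes nearest in profile were named. A gene that this rule names is not reported here. The members and lists were chosen with earlier results of these data known.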

Additional observations from a re-analysis of the deposited data

Results flagged for a closer look

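Usp18 and Irf7 differed in the sign of the Dox difference between hearts without and with Rh2. For Usp18 the log2 ratio was 0.02 in Dox against Control, -0.17 at Rh2-20 mg/kg and -0.38 at Rh2-30 mg/kg, and the Dox difference with Rh2 minus that without was -0.296. For Irf7 the log2 ratios were 0.11, -0.18 and -0.84, and the difference was -0.579. In edgeR's quasi-likelihood test of the interaction the adjusted p was 0.988 for both, and each arm without Rh2 was 1 library. The ratio without Rh2 lay within the spread between libraries for both genes.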

How the results depend on the processing

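Of 130 Dox differences of the members under the alternatives 121 kept their direction, of 130 Rh2 differences 130 did, and of 50 interactions 49 did. Genes called for Dox were 5, and were 425 with DESeq2's Wald test, 0 on FPKM plus 1, 0 with Rh2 as a term, 0 with Rh2 dose as a factor and 0 to 14 with a library left out, the 14 without Rh2-30 mg/kg + Dox. DESeq2 called 242 genes for Rh2, 3 of them members, and 38 for the interaction. Members lower with Dox at the unadjusted level were 0, and were 1 with Rh2 as a term and 2 with Rh2 dose as a factor. With a library left out they were 0 to 4, the 4 without the Dox library. Members higher with Dox at that level were 0, and 0 to 1 with a library left out, the 1 without Rh2-30 mg/kg + Dox. Members lower with Rh2 were 8, and were 5 on FPKM plus 1 or plus 0.1 and 2 to 8 with a library left out. No share of all genes is set beside the counts on FPKM, with terms for Rh2, or of members higher with Dox. The causes were not tested.

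The Dox difference of Rsad2 reversed on FPKM plus 0.1 (-0.0865), as did the interaction of Mx1 (-0.0445). With a library left out, Dox differences spanned 0 for 5 members: Ifit1 from -0.258 to 0.176, Usp18 from -0.541 to 0.130, Mx2 from -0.525 to 0.0785, Rsad2 from -0.389 to 0.998 and Irf7 from -0.616 to 0.0696. The lowest of each came without the Dox library, and the highest without Control for Usp18 and Mx2 and without Rh2-30 mg/kg + Dox for Ifit1, Rsad2 and Irf7.

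Shares of all genes were not computed for the alternatives in this paragraph, so its counts of members have no such comparison. At 1.5-fold in place of 2-fold, Rh2 alone against Control gave 3 members lower at either dose, and Rh2-20 mg/kg + Dox against Control gave 5. Against Dox there were 3 with the lower Rh2 dose and 9 with the higher. Dox added to Rh2-30 mg/kg gave 5 lower, and Dox added to Rh2-20 mg/kg gave 1 higher. On total counts, FPKM plus 1 and FPKM plus 0.1, Mx2 was no longer 2-fold lower than Control with Rh2-30 mg/kg alone, nor with the lower dose plus Dox (0 members in each). On FPKM plus 1 the count was 3 for Rh2-30 mg/kg + Dox against Control, and it was 0 for the lower dose plus Dox against Dox. On total counts it was 3 for Dox added to Rh2-30 mg/kg. Of 110 member ratios, 35 had an interval that left out 0, and 8 with the Cox-Reid dispersion of 0.0864, chosen after seeing the data. These ratios share libraries and are not independent.

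The labels carry no replicate numbers, so no fit by replicate was made. The fit with Rh2 dose as a factor, given above, paired the libraries of the same Rh2 dose. Each condition rests on 1 pool of 5 hearts, so the differences between single hearts are unknown and no single-library ratio has a replicate check. The depth was ample for the members, but could not show a change in type I interferon genes at 3 counts or fewer.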
